A study of Rattus norvegicus with 6 samples.

Results

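The genes described here encode potassium channels and their subunits in rat primary astrocytes. They are the symbols of the deposited expression table made of Kcn, 1 or more letters and a number, with the inward rectifier genes Kcnj10 and Kcnj16 left out. This gave 91 members of 22608 genes: 13 inward rectifier, 14 two-pore, 8 calcium-activated and 40 voltage-gated pore genes, and 16 genes of auxiliary subunits. Poly(A) RNA was sequenced from 3 control libraries and 3 libraries of the same kind of cells given BHB (β-hydroxybutyrate), a ketone body that the liver makes in fasting. The column names give the dose as 2 mM, and how long the cells were treated is not stated in the labels. No strain, age or genotype is given for either group, and no agent is named for the controls. Nothing in the labels ties the replicates to separate cultures or animals. The p-values therefore speak for the spread among these 6 libraries alone, and that spread may be technical.

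Potassium channels let potassium ions cross the membrane along their electrochemical gradient and so hold the resting potential of a cell near the potassium equilibrium. Inward rectifiers pass current more readily into the cell, two-pore channels carry a background leak, calcium-activated channels open when intracellular calcium rises, and voltage-gated channels open on depolarisation. Astrocytes are known for a large resting potassium conductance, through which they take up the potassium that active neurons release. ATP-sensitive channels, which are inward rectifiers joined to a sulfonylurea receptor, close when ATP is high and have been studied in neurons as a link between ketone bodies and excitability.

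The values are FPKM, a count of fragments scaled for transcript length and library size, so levels can be compared between genes. The depth of each library is unknown, and FPKM added up to between 354565 and 367448 per library. The astrocyte markers Fabp7 and Gfap were abundant, at means of 2311 and 1478 FPKM, and held most of the astrocyte marker sum. The other listed ones ran from 329 FPKM for Slc1a3 to 5.94 FPKM for Slc1a2, with Aldh1l1 at 28.5 FPKM. The 12 astrocyte markers summed to between 4913 and 5170 FPKM in controls and between 5329 and 5342 FPKM with BHB, without overlap. Of these markers 7 lay above and 5 below 0 (median log2 fold change 0.02), and 1, the glutamate transporter gene Slc1a3, passed. Without Slc1a3, set apart after its value was seen, the other 11 summed to between 4706 and 4973 FPKM in controls and between 4873 and 4890 FPKM with BHB, and the groups overlapped. Of the mural and fibroblast markers, Tagln at 3067 FPKM and Acta2 at 1309 FPKM were abundant as well. The other listed ones ran from 99.6 FPKM for Col1a1 to 0.00540 FPKM for Dcn, with Rgs5 at 1.31 FPKM. Microglial markers summed to between 48.1 and 53.2 FPKM in controls and between 49.1 and 51.6 FPKM with BHB, and neuron markers to between 91.5 and 95.2 FPKM in controls and between 90.2 and 92.5 FPKM with BHB. The endothelial genes Cldn5 and Emcn were listed at 0 in every library. In such bulk samples, fewer cells of a type and less RNA per cell cannot be told apart.

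Most potassium channel genes were near or under 1 FPKM in these cultures. Of the 91 members, 28 had a mean of at least 1 FPKM, 28 lay between 0.1 and 1 FPKM and 35 were under 0.1 FPKM. Among the latter, 6 were listed at 0 in every library: Kcnj1, Kcnk15, Kcnk16, Kcnu1, Kcna10 and Kcng3. The 28 members with a mean of at least 1 FPKM were also the 28 that reached 1 FPKM in at least 3 libraries, the minimum for the test of treatment. They made up 30.8% of the members, while 54.7% of all genes of the table reached the minimum. By class, 2 of 13 inward rectifiers, 3 of 14 two-pore genes, 1 of 8 calcium-activated genes, 15 of 40 voltage-gated genes and 7 of 16 auxiliary genes were tested.

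**Figure D1:**
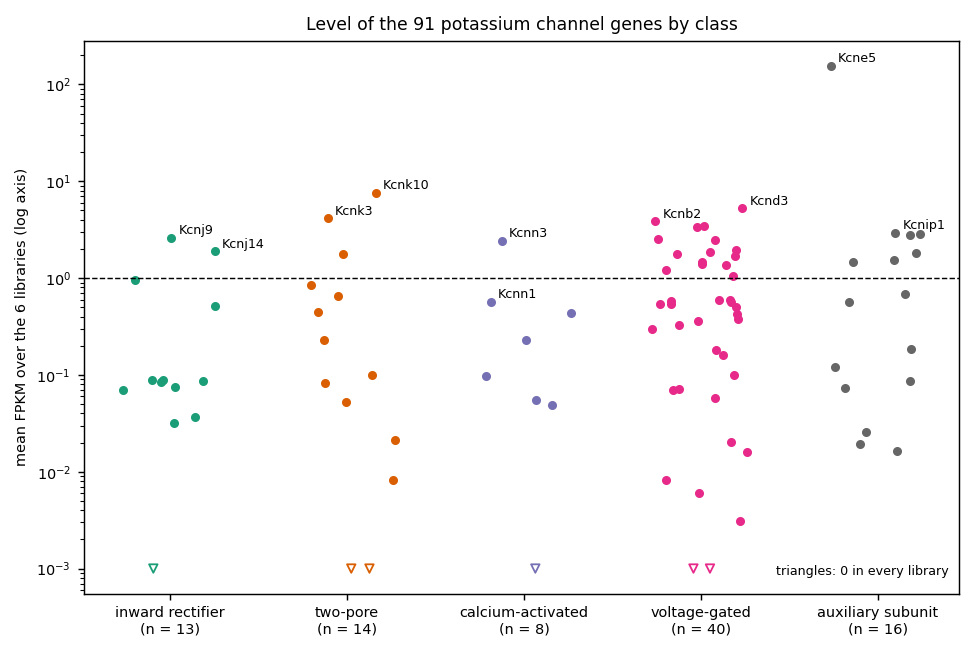
Mean FPKM over the 6 libraries, on a log axis, for each of the 91 members by class. Points are genes, open triangles are the 6 genes listed at 0 in every library, the dashed line marks 1 FPKM, and the highest genes of each class are named. Kcne5 stands at 156 FPKM, 20.4 times the next member, Kcnk10.

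A single auxiliary gene, Kcne5, was far above all other members. Kcne5 encodes a small single-pass membrane protein that modulates voltage-gated channels. It stood at 170.4, 156 and 139 FPKM in controls 1 to 3 and at 151, 161 and 157 FPKM in BHB libraries 1 to 3. The BHB libraries lay within the range of the controls, and the gene ranked between 296 and 372 of 22608 in every library. Kcne5 held 65.3% of the summed FPKM of all members. It was followed by the two-pore gene Kcnk10 at a mean of 7.64 FPKM and the voltage-gated gene Kcnd3 at 5.27 FPKM. The 75 pore genes together summed to 66.8 ± 1.5 FPKM in the controls against 68.5 ± 1.69 FPKM after BHB (SD, n = 3 each). Of the mean pore sum, voltage-gated genes held 61.0%, two-pore genes 23.7%, inward rectifiers 9.65% and calcium-activated genes 5.68%.

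The start regions of 3 genes at different levels are shown to set the abundance of transcripts beside the promoter. They are Kcne5, the most abundant member, Kcnd3, the most abundant voltage-gated gene, and Kcng3, a voltage-gated modifier subunit listed at 0 throughout. Each is the 250 bases before the transcription start, 5′ to 3′ on the gene's strand, from RefSeq on the later assembly GRCr8. Capitals mark CG, the dinucleotide that can be methylated.
Kcne5: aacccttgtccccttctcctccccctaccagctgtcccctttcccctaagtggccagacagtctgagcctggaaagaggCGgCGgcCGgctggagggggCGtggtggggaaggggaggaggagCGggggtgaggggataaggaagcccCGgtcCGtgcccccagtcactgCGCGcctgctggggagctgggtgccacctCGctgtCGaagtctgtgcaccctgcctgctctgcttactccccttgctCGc
Kcnd3: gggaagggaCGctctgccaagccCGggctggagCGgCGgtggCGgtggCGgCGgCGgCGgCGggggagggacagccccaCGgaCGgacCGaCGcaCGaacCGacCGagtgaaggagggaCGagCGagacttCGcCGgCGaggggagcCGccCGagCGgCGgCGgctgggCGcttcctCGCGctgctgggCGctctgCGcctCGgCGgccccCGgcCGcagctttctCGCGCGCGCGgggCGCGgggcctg
Kcng3: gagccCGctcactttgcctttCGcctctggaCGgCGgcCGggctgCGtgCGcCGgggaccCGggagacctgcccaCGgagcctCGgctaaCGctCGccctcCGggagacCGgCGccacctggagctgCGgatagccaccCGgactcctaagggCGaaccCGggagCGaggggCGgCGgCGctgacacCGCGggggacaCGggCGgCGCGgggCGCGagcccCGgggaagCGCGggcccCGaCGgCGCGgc
The regions are chrX:110727850-110728099 on the minus strand for Kcne5, chr2:195626066-195626315 on the plus strand for Kcnd3 and chr6:16803592-16803841 on the plus strand for Kcng3. Kcnd3 held 43 CG and Kcng3 held 39, counts that 1.16% and 2.38% of such regions of 13003 genes of the table reached. Kcne5 held 12 CG, which 55.2% reached. Thus Kcne5, at 156 FPKM, had fewer CG than Kcng3. It had more than Kcna10 and Kcnk16, which were also listed at 0 and held 3 and 7 CG. These 3 genes were chosen after their values were seen and are a description of these windows.

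No member passed the test of BHB against control. None of the 28 tested members passed limma at an adjusted p of 0.05, against 7 of 12373 genes (0.0566%) in the whole table, 0.0485% higher and 0.00808% lower with BHB. The lowest adjusted p among the members was 0.881. At an unadjusted p under 0.05 there was 1 member, Kcnip3, or 1 of 28, against 5.59% of all genes tested. Log2 fold changes (BHB over control, on the log2(FPKM + 1) scale, which understates changes of low genes) ran from -0.30 for Kcna2 to 0.37 for Kcnd3, with 12 members above and 16 below 0. Their median was -0.02, beside 0.003 over all genes tested. Not passing does not show that a member was unchanged, and the 95% intervals give what the data allow: -0.14 to 0.18 for Kcne5 but -0.15 to 0.89 for Kcnd3.

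**Figure D2:**
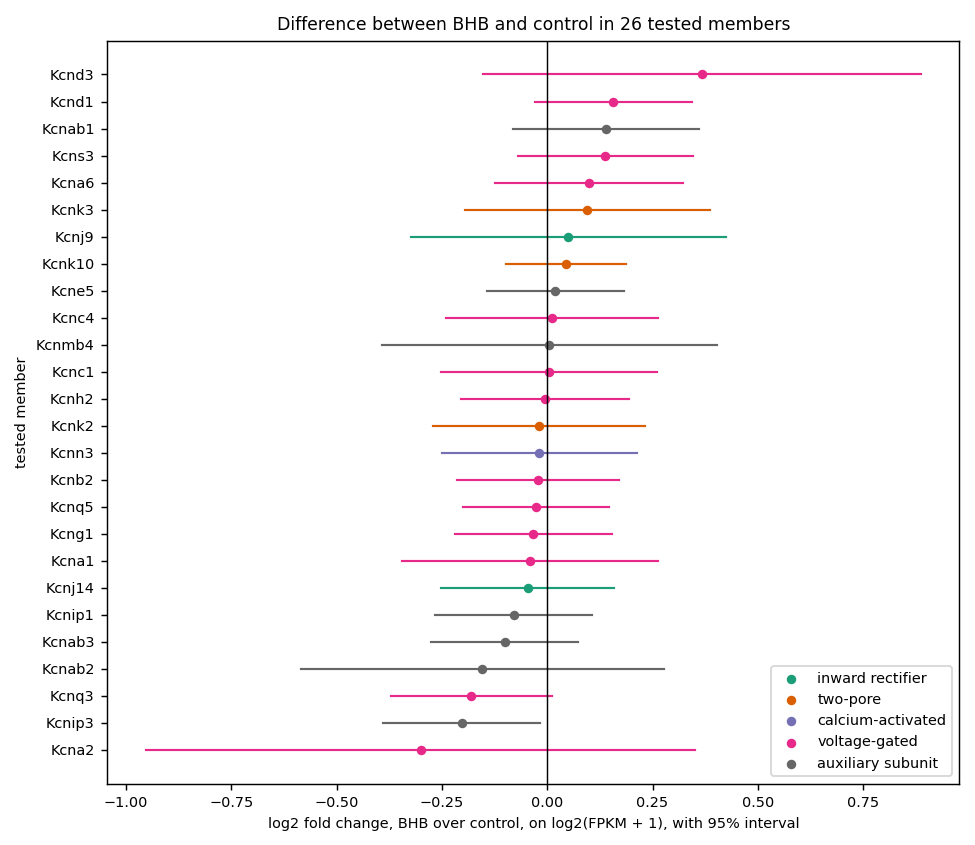
Log2 fold change of BHB over control on the log2(FPKM + 1) scale, with its 95% interval from limma, for 26 of the 28 tested members, coloured by class and ordered by value. All intervals shown except that of Kcnip3 include 0.

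Inward rectifiers were scarce once Kcnj10 was set aside, and both tested genes overlapped between groups. Kcnj9, a subunit of G protein-gated channels, stood at 2.96, 2.36 and 2.20 FPKM in controls and at 2.05, 2.31 and 3.69 FPKM with BHB. The highest and the lowest library both belonged to the BHB group. Its log2 fold change was 0.05 (95% interval -0.32 to 0.42, limma adjusted p = 0.977). Kcnj14, a strong inward rectifier subunit, stood at 1.87, 2.13 and 1.83 FPKM in controls and at 1.68, 2.10 and 1.78 FPKM with BHB. The groups overlapped (log2 fold change -0.05, 95% interval -0.25 to 0.16, limma adjusted p = 0.955). Kcnj9 was above Kcnj14 in 6 of 6 libraries, although their ranges overlapped. In the RefSeq table the span of Kcnj9 overlaps that of Igsf8, at a mean of 27.6 FPKM, and lies next to Kcnj10. The library kit does not mark strand, so reads from sequence that Kcnj9 shares with an overlapping gene cannot be told apart by strand.

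The other 11 inward rectifiers had means under 1 FPKM: Kcnj13, Kcnj2, Kcnj4, Kcnj8, Kcnj5, Kcnj15, Kcnj3, Kcnj11, Kcnj6, Kcnj12 and Kcnj1. Kcnj13, whose channel is known from epithelia, lay just under the minimum, at 0.856, 1.2 and 1.11 FPKM in controls and 0.988, 0.659 and 0.967 FPKM with BHB. Its span overlaps that of Gigyf2, at 16.2 FPKM. Kcnj2, which encodes a strong inward rectifier of muscle and many other cells, had 0.547 ± 0.0353 FPKM in the controls against 0.483 ± 0.0509 FPKM after BHB (SD, n = 3 each), with overlapping groups. Kcnj3, a pore subunit of G protein-gated channels and a partner of Kcnj9, was at 0.0477, 0.0169 and 0.0324 FPKM in controls and at 0.0988, 0.110 and 0.148 FPKM with BHB. The BHB libraries lay above the controls, yet all 6 values were under 0.15 FPKM. With no minimum on the level, Kcnj3 had an unadjusted p of 0.00602 in limma and an adjusted p of 0.887. It is named here after its values were seen.

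Transcripts of ATP-sensitive channels were at very low levels. Kcnj8, the pore gene of the vascular and pericyte type, was at 0.0326, 0 and 0.0930 FPKM in controls and at 0.0284, 0.245 and 0.130 FPKM with BHB, and the groups overlapped. Kcnj11, the pore gene of the type found in neurons and pancreatic β cells, was at 0.0911, 0.0537 and 0.0318 FPKM in controls and at 0.0818, 0.0851 and 0.0738 FPKM with BHB. Abcc8, the sulfonylurea receptor paired with Kcnj11 in neurons, was listed at 0 in 2 control and 2 BHB libraries and reached 0.0419 FPKM. Abcc9, the receptor paired with Kcnj8 in vessels, stood at 0.248, 0.205 and 0.249 FPKM in controls and at 0.151, 0.203 and 0.169 FPKM with BHB. The Abcc9 values with BHB were below those of the controls by a narrow margin, at a level too low for the main test (unadjusted p = 0.0723 in limma with no minimum). Mural and fibroblast cells are the types in which Kcnj8 and Abcc9 are known to be high. Their markers summed to between 4216 and 4591 FPKM in controls and between 4397 and 4748 FPKM with BHB. Tagln and Acta2 held most of this sum, while Rgs5 had a mean of 1.31 FPKM and Dcn of 0.00540 FPKM. Of these 11 markers 7 were tested, 5 above and 2 below 0, and none passed. Their part in the levels of Kcnj8 and Abcc9 was not tested.

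Kcnj10, the main inward rectifier of astrocytes and left out of the members, was the most abundant inward rectifier, at 11.7, 22 and 20.3 FPKM in controls and 21.1, 22.6 and 16.9 FPKM with BHB (log2 fold change 0.19, limma adjusted p = 0.919). Kcnj16, its partner subunit, was at most 0.0433 FPKM. The 13 inward rectifier members summed to 6.51 ± 0.255 FPKM in the controls against 6.56 ± 0.970 FPKM after BHB (SD, n = 3 each).

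Two-pore channel genes were led by Kcnk10, which encodes a mechanically and lipid-sensitive leak channel known in astrocytes. It stood at 7.98, 7.27 and 7.27 FPKM in controls and at 7.81, 7.62 and 7.89 FPKM with BHB. With a coefficient of variation of 4.04% over the 6 libraries it was the steadiest of the tested members. Its log2 fold change of 0.05 had a 95% interval of -0.10 to 0.19 (limma adjusted p = 0.936). Kcnk3, an acid-sensitive leak channel, stood at 4.23, 4.56 and 3.15 FPKM in controls and at 4.21, 4.93 and 3.76 FPKM with BHB. Its log2 fold change was 0.10 (95% interval -0.20 to 0.39, limma adjusted p = 0.934). Kcnk2, the close relative of Kcnk10, stood at 1.76, 1.76 and 1.84 FPKM in controls, while its BHB libraries spread from 1.45 to 2.22 FPKM on both sides of them (log2 fold change -0.02, limma adjusted p = 0.988).

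The order Kcnk10, Kcnk3, Kcnk2 and Kcnk1 was the same in 6 of 6 libraries, and the ranges of neighbours in it did not overlap. Kcnk1, a weakly rectifying leak channel reported in astrocytes, was just under the minimum, at 0.691, 0.559 and 0.896 FPKM in controls and at 0.832, 1.22 and 0.924 FPKM with BHB, and the groups overlapped. Kcnk5 and Kcnk6 followed at means of 0.656 and 0.451 FPKM. Kcnk13, a channel known from microglia, had a mean of 0.230 FPKM. Kcnk9, Kcnk12, Kcnk7, Kcnk4 and Kcnk18 were at about 0.1 FPKM or less, and Kcnk15 and Kcnk16 were listed at 0. Summed over the 14 genes, the two-pore class stood at 16.2, 15.6 and 14.5 FPKM in controls and at 16.7, 17.0 and 16 FPKM with BHB, a ratio of means of 1.07 with overlapping groups.

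**Figure D3:**
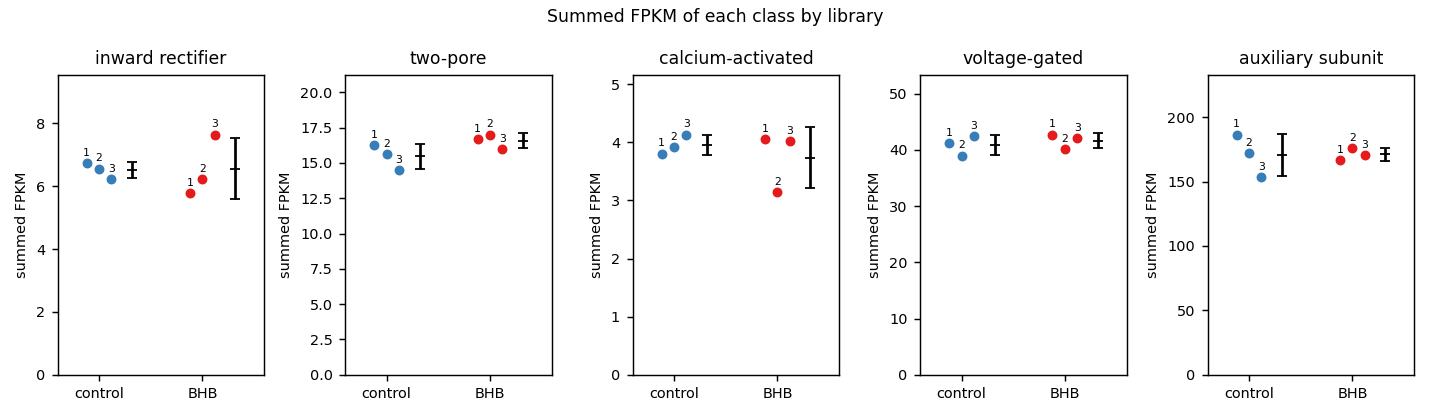
Summed FPKM of the members of each class in each library, numbered by replicate, with the mean and SD of the 3 libraries of a group beside the points; each axis starts at 0. Controls and BHB libraries overlap in all 5 classes, and Kcne5 makes up 91.1% of the auxiliary sum.

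Among calcium-activated genes, Kcnn3 alone reached the minimum. Kcnn3, a small-conductance channel gated through calmodulin, stood at 2.28, 2.56 and 2.45 FPKM in controls and at 2.57, 1.95 and 2.69 FPKM with BHB. The lowest and the highest library were both BHB libraries, and the log2 fold change was -0.02 (95% interval -0.25 to 0.21, limma adjusted p = 0.986). It held 62.9% of the summed FPKM of its class. Kcnn1, another small-conductance channel, stood at 0.557, 0.617 and 0.741 FPKM in controls and at 0.530, 0.481 and 0.473 FPKM with BHB. The BHB libraries were below the controls, and with no minimum on the level its unadjusted p in limma was 0.0481 and its adjusted p 0.887.

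Kcnma1, the large-conductance channel that responds to both calcium and voltage, had 0.430 ± 0.0829 FPKM in the controls against 0.433 ± 0.158 FPKM after BHB (SD, n = 3 each). Kcnt1, a relative gated by sodium, had a mean of 0.227 FPKM. Kcnn4, the intermediate-conductance channel of blood and immune cells, had 0.0973 FPKM, and Kcnn2, a small-conductance channel of neurons, 0.0557 FPKM. Kcnt2 was lower still, and Kcnu1, known from sperm, was listed at 0. Summed over its 8 genes, the class stood at 3.95 ± 0.167 FPKM in the controls against 3.74 ± 0.517 FPKM after BHB (SD, n = 3 each).

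The voltage-gated class held 15 of the 28 tested members, and none passed. Kcnd3, a pore gene of the fast A-type current, stood at 2.54, 5.01 and 6.28 FPKM in controls and at 6.32, 5.67 and 5.80 FPKM with BHB. Control 1 was low, while controls 2 and 3 lay around the BHB values. The log2 fold change of 0.37 (limma adjusted p = 0.890) was 0.07 without control 1. Kcnj10 was lowest in the same library. Kcnd1, another A-type pore gene, stood at 3.46, 3.16 and 3.11 FPKM in controls and at 3.39, 3.74 and 4.08 FPKM with BHB, with overlapping groups and a log2 fold change of 0.16, whose 95% interval was -0.03 to 0.34 (limma adjusted p = 0.890).

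Kcnb2, a delayed rectifier, was steady at 3.90 ± 0.275 FPKM in the controls against 3.83 ± 0.365 FPKM after BHB (SD, n = 3 each; limma adjusted p = 0.979 at a log2 fold change of -0.02). Kcns3, a silent subunit that joins such delayed rectifiers, stood at 3.30, 2.93 and 3.17 FPKM in controls and at 3.15, 4.04 and 3.49 FPKM with BHB (log2 fold change 0.14, 95% interval -0.07 to 0.35, limma adjusted p = 0.895). The neighbours in the order Kcnd3, Kcnb2, Kcnd1 and Kcns3 had overlapping ranges, and this order did not hold in every library. Kcns3 was above the next gene, Kcnq5, in 6 of 6 libraries without overlap.

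Genes of the slow, muscarine-sensitive current were Kcnq5 and Kcnq3. Kcnq5 had 2.60 ± 0.191 FPKM in the controls against 2.53 ± 0.0443 FPKM after BHB (SD, n = 3 each; limma adjusted p = 0.972 at a log2 fold change of -0.03). Kcnq3 stood at 2.70, 2.48 and 2.95 FPKM in controls and at 2.43, 2.10 and 2.29 FPKM with BHB. All 3 BHB libraries lay below all 3 controls, by a margin smaller than the spread within either group. The log2 fold change of Kcnq3 was -0.18 (95% interval -0.37 to 0.01), which did not pass (limma adjusted p = 0.881).

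Shaker-type genes are named for the fly channel and known from axons. Their coefficients of variation over the 6 libraries were 50.7% for Kcna2, 19.5% for Kcna1 and 12.9% for Kcna6. Kcna2 stood at 1.77, 0.719 and 1.80 FPKM in controls and at 1.46, 1.34 and 0.242 FPKM with BHB. BHB 3 was 2.97 times below the next library, control 2. The log2 fold change of -0.30 (limma adjusted p = 0.917, 95% interval -0.95 to 0.35) was 0.02 without BHB 3 and -0.53 without control 2. With a pseudocount of 0.1 in place of 1 it was -0.64 (limma adjusted p = 0.908). Kcna1 had 2.00 ± 0.544 FPKM in the controls against 1.89 ± 0.235 FPKM after BHB (SD, n = 3 each). Kcnc4, of the fast-spiking channel family, was the tested gene nearest the minimum, at 1.04 ± 0.171 and 1.06 ± 0.206 FPKM (SD, n = 3 each; limma adjusted p = 0.993 at a log2 fold change of 0.01). Kcnc1, Kcnh2, Kcng1 and Kcna6, of the same class, had means of 1.41 to 1.88 FPKM and log2 fold changes of -0.03 to 0.10, with overlapping groups.

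A further 25 voltage-gated genes had means under 1 FPKM, among them Kcnd2, Kcng4, Kcna3, Kcns2, Kcns1, Kcnh1, Kcnv2, Kcnh4, Kcna4, Kcnf1, Kcnh5, Kcnh7, Kcnc2, Kcng2, Kcnv1, Kcna5, Kcnh3, Kcnh6, Kcnq1, Kcnh8, Kcna7, Kcna10 and Kcng3. In Kcns1, a silent subunit, the libraries were at 0.484, 0.444 and 0.424 FPKM in controls and at 0.533, 0.557 and 0.556 FPKM with BHB, so the BHB group was the higher. Kcnc2 was at 0.115, 0.115 and 0.151 FPKM in controls and at 0.0602, 0.0969 and 0.0609 FPKM with BHB, so the BHB group was the lower. Kcns1 and Kcnc2, named after their values were seen, had unadjusted p-values of 0.0457 and 0.0481 in limma with no minimum. The sum over the 40 genes was 40.9 ± 1.75 FPKM in the controls against 41.7 ± 1.32 FPKM after BHB (SD, n = 3 each).

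**Figure D4:**
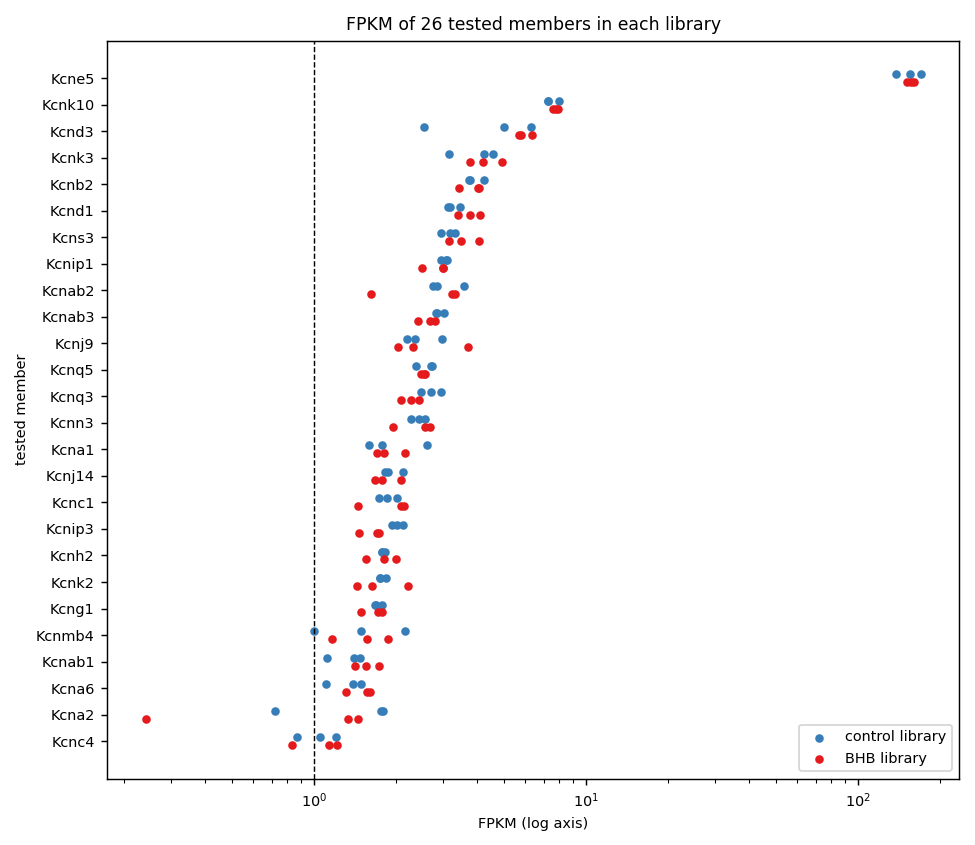
FPKM of 26 of the 28 tested members in each of the 3 control and 3 BHB libraries, on a log axis, ordered by mean; the dashed line marks 1 FPKM. The groups overlap in 23 of the members shown, and Kcna2 in BHB 3 and Kcnd3 in control 1 stand apart from the other libraries.

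Auxiliary subunits change the gating or surface level of pore subunits. Kcne5, described above, had 155 ± 15.8 FPKM in the controls against 156 ± 4.63 FPKM after BHB (SD, n = 3 each; limma adjusted p = 0.978 at a log2 fold change of 0.02). It has a single listed transcript, and its span overlaps no other protein-coding gene in the RefSeq table. Its neighbours Nxt2 and Acsl4 had means of 3.54 and 6.20 FPKM. Of its family, Kcne4, Kcne2, Kcne3 and Kcne1 were under 1 FPKM, with the highest, Kcne4, at 0.682 FPKM.

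Genes of the calcium-binding KChIP proteins encode partners of the A-type pores. Kcnip3, which encodes a KChIP also described as a transcriptional repressor, stood at 2.03, 2.14 and 1.94 FPKM in controls and at 1.71, 1.73 and 1.47 FPKM with BHB. All 3 BHB libraries lay below all 3 controls. The log2 fold change of -0.20 (SE 0.0811, 95% interval -0.39 to -0.02) had an unadjusted p of 0.0361 and did not pass (limma adjusted p = 0.881). Without a given library the log2 fold change ran from -0.23 to -0.16. Kcnip1, which shares its span with Kcnmb1, had 3.03 ± 0.0899 FPKM in the controls against 2.83 ± 0.288 FPKM after BHB (SD, n = 3 each; limma adjusted p = 0.917 at a log2 fold change of -0.08). Kcnip2 and Kcnip4 had means of 0.186 and 0.0194 FPKM.

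Neuron markers are given beside Kcnip3 and Kcnq3, since both genes are known from neurons. Of 12 such markers 7 were tested, 2 above and 5 below 0 (median log2 fold change -0.02), and none of the 7 passed. In the synaptic vesicle gene Syp the means were 5.06 FPKM in controls and 4.19 FPKM with BHB. In the GABA synthesis gene Gad1 they were 1.57 and 1.13 FPKM. Both were lower with BHB without overlap, as were 4.45% of all genes tested, and are named after their values were seen. The 2 tested markers above 0 were Snap25, at 1.46 and 1.69 FPKM, and Syt1, at 0.871 and 1.03 FPKM, with overlapping groups. Stmn2 held most of the neuron marker sum, with 54.8 and 54.1 FPKM, and Rbfox3, a defining gene of mature neurons, was at 0.392 and 0.454 FPKM. The part of these cells in the values of Kcnip3 and Kcnq3 was not tested.

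The cytoplasmic β subunits of Shaker-type channels all reached the minimum. Kcnab3 stood at 2.85, 3.02 and 2.81 FPKM in controls and at 2.42, 2.80 and 2.68 FPKM with BHB. The groups did not overlap, but control 3 and BHB 2 differed by less than the spread within either group, and the log2 fold change of -0.10 did not pass (limma adjusted p = 0.898). Kcnab2 was low in BHB 3, at 1.62 FPKM against 3.23 and 3.31 FPKM in the other BHB libraries and 2.74 to 3.57 FPKM in controls. Its log2 fold change of -0.15 (limma adjusted p = 0.925) was 0.08 without BHB 3. Its span overlaps that of Nphp4, at 1.41 FPKM. Kcnab1 had 1.34 ± 0.189 and 1.57 ± 0.163 FPKM (SD, n = 3 each; limma adjusted p = 0.895 at a log2 fold change of 0.14).

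Kcnmb4, the β subunit of large-conductance channels known from brain, spread from 1.00 to 2.17 FPKM in controls alone, and its log2 fold change was 0.01 (95% interval -0.39 to 0.40, limma adjusted p = 0.997). Its level exceeded that of its pore partner Kcnma1 in the means, at 1.55 against 0.432 FPKM. Kcnmb1, Kcnmb2 and Kcnmb3 were under 0.1 FPKM in the mean. Without Kcne5 the auxiliary genes summed to 15.8 ± 0.757 FPKM in the controls against 14.6 ± 1.05 FPKM after BHB (SD, n = 3 each).

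**Figure D5:**
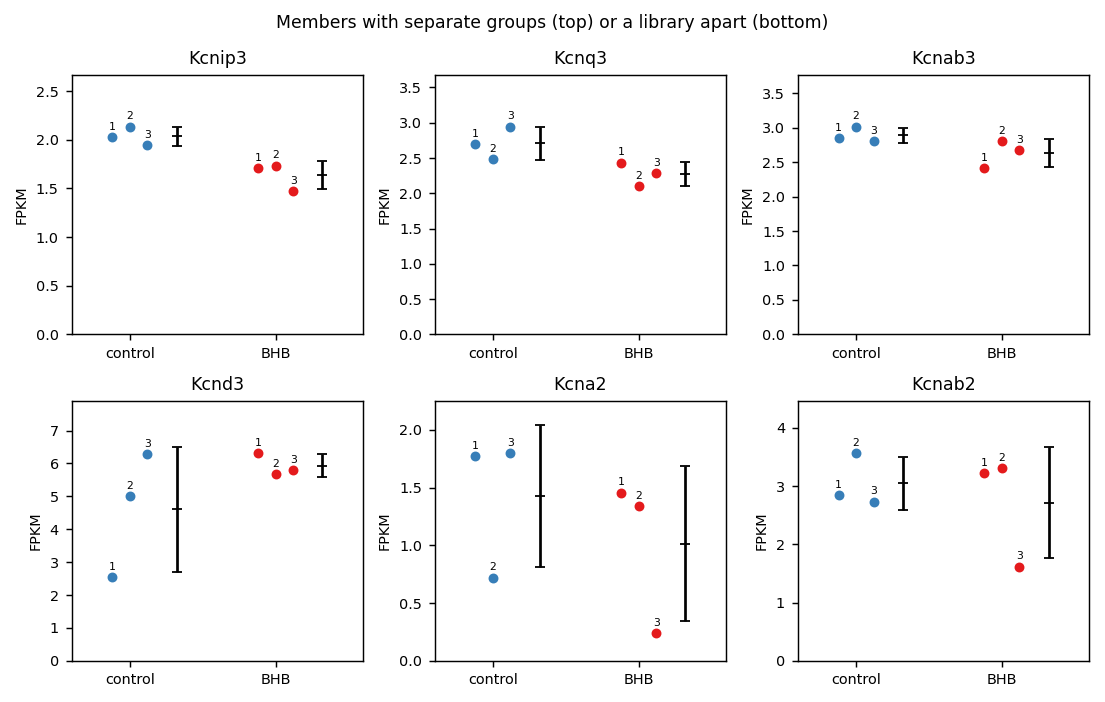
FPKM of 6 members in each library, numbered by replicate, with the mean and SD of each group of 3 beside the points; each axis starts at 0. In the top row (Kcnip3, Kcnq3 and Kcnab3) the BHB libraries lie below the controls. In the bottom row the lowest library lies apart: control 1 for Kcnd3 at 2.54 FPKM, and BHB 3 for Kcna2 and Kcnab2 at 0.242 and 1.62 FPKM. For Kcna2, control 2 is low as well, at 0.719 FPKM.

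Counted over the tested members, the groups did not overlap in 3 of 28, Kcnip3, Kcnq3 and Kcnab3, all lower with BHB, where 4.45% of all genes tested did so in that direction. No tested member was higher without overlap, against 6.43% of all genes tested. Among the 57 members above 0 that did not reach the minimum, 3 were higher (Kcnj3, Kcns1 and Kcnh1) and 2 lower (Kcnn1 and Kcnc2) without overlap, beside 3.81% and 4.19% of all such genes. Over all genes above 0 the shares were 5.65% higher and 4.37% lower. With no minimum, 85 members could be fitted, of which 5 (Kcnj3, Kcnip3, Kcns1, Kcnc2 and Kcnn1) had an unadjusted p under 0.05 (5.39% of all genes fitted) and none passed in limma (0.0283% of all genes fitted), where the lowest adjusted p was 0.887.

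The spread between libraries was set beside that of other genes. The median coefficient of variation over the 6 libraries was 12.5% in the 28 tested members and 6.99% over all genes tested. Among the 4803 tested genes between 1.05 and 7.64 FPKM, the range of the members other than Kcne5, it was 10.3%. The highest library exceeded the lowest by more than 1.5 times in 10 of 28 members (35.7%) and in 24.4% of genes in that range of level. Values with more than 6 decimals, whose origin no source used here explains, occurred in 53.6% of the tested members and in 57.4% of all genes tested. Of the 10 members with a range over 1.5 times, 5 had such values. Kcna2, Kcnd3 and Kcnab2, with the widest ranges at 7.43, 2.49 and 2.21 times, were among these 5. Kcnmb4 and Kcnj9, next at 2.16 and 1.80 times, were not. The part of such values in these ranges was not tested. The median coefficient of variation was 12.2% in the members with such values and 12.9% in the other tested members.

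Other genes of potassium handling did not pass either. Of 24 listed partners (sodium pump subunits, cation-chloride cotransporters, pacemaker and volume-regulated channels, sulfonylurea receptors and channel partners), 14 were tested, with 7 above and 7 below 0 (median log2 fold change 0.004). By limma none passed, and none had an unadjusted p under 0.05. Atp1b2, the glial β subunit of the sodium pump, stood at 218 ± 14.1 and 205 ± 11.7 FPKM without and with BHB, and Atp1b3 at 81.7 ± 3.76 and 82.4 ± 4.31 FPKM (SD, n = 3 each). Atp1b1, a β subunit, stood at 159.6, 162 and 162 FPKM in controls and at 169.5, 168 and 164 FPKM with BHB (log2 fold change 0.05, limma adjusted p = 0.898). Its groups did not overlap, which held for 1 of the 14 tested partners. Of all genes tested, 6.43% were higher with BHB without overlap.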

How the data were processed

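RNA of 3 control and 3 BHB libraries was captured on oligo-dT beads and prepared with the TruSeq kit, version 2, per the labels. The authors deposited FPKM values per gene symbol. Per the submitters' processing notes, HISAT2, StringTie, bcl2fastq 2.0 and the build rn6 were used, without roles or settings. The annotation and the strand setting are not given. Depth is unknown. Among genes under 0.1 FPKM the commonest ratio to control 1 ran from 0.851 to 1.015, over few genes.

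Values were taken as log2(FPKM + 1), and the 12373 genes that reached 1 FPKM in 3 or more libraries were fitted with limma 3.58.1 (R 4.3.3; eBayes with trend, two-sided, Benjamini-Hochberg over all genes tested, threshold 0.05). On simulated data for BHB against control with 12373 genes, 20.1% of changes of 0.25 and 86.9% of 0.5 on the log2 scale were recovered. The changes were planted, with larger ones of up to 1.5, in genes drawn from all genes tested. The tested members varied more than these (median coefficient of variation 12.5% against 6.99%). The noise was normal and independent between libraries, with the spread that limma had estimated for each gene. A library apart, as in Kcnd3, Kcna2 and Kcnab2, was not modelled. The shares therefore do not measure what would be recovered among the members.

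Named were the 6 most abundant members per class, those at an unadjusted p under 0.05, the 2 nearest 1 FPKM on each side, Kcnj8 and Kcnj11 with their receptors, and the partners that were most abundant. Others were named after their values were seen. Some genes that entered the counts and sums are not reported here by name. The members and lists were chosen with earlier results of these data known. RefSeq promoters (GRCr8) matched 61 of 91 members (67.0%), so a check of promoter content over the members is void. All 91 matched the RefSeq gene table, used for overlaps and neighbours. Alternatives changed the pseudocount, filter, trend, scaling, block, decimals or libraries.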

Additional observations from a re-analysis of the deposited data

How the results depend on the processing

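No member passed in limma under any alternative run (0 each time), while the count over all genes was 7, and 4 without the eBayes trend, 2 with the replicate block and 2 among genes with at most 6 decimals (fewer genes tested). The cause was not tested for the trend. Leaving out a library gave 5 to 10 genes. Deviations correlated at -0.0899, 0.164 and -0.151 between libraries numbered 1, 2 and 3, so not every pair exceeded 0.1. The main fit took no pairs. The replicate block paired the libraries by these numbers and was run as an alternative only. Control 2 correlated best with its own number, control 1 with BHB 3 (0.186) and control 3 with BHB 1 (0.203). Of 270 values of 20 named members 250 kept their direction. A pseudocount of 0.1 moved Kcna2 to -0.64. Scaling to equal sums turned Kcnmb4 to -0.00405 and quantile normalization turned Kcne5 to -0.00370. Leaving out a library turned 10 members, whose log2 fold changes then ran from -0.532 to 0.0163 (Kcna2), -0.278 to 0.0811 (Kcnab2), -0.0565 to 0.0423 (Kcnb2), -0.0517 to 0.0958 (Kcnc4), -0.0570 to 0.0903 (Kcne5), -0.137 to 0.174 (Kcnj9), -0.132 to 0.0644 (Kcnk2), -0.0308 to 0.181 (Kcnk3), -0.157 to 0.173 (Kcnmb4) and -0.0806 to 0.0803 (Kcnn3). The class sums moved by less than the spread between libraries. The lowest adjusted p of a named member was 0.685, without BHB 1. The unknown depth limits the 63 members under the minimum, whose values may rest on few fragments.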
